A study of Mus musculus with 12 samples.

Results

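The genes described here are the core of the Notch signaling pathway: the 4 receptors *Notch1*, *Notch2*, *Notch3* and *Notch4*, the 4 ligands *Dll1*, *Dll4*, *Jag1* and *Jag2*, the nuclear effector *Rbpj* and the feedback inhibitor *Nrarp*. They were taken as a named list of pathway genes and are 10 of the 35727 genes in the count table. All 10 passed the filter on low counts and were among the 15506 genes tested. The samples were neonatal mouse cardiac fibroblasts infected with *Sox17* and *Erg* retroviruses to make induced endothelial cells (iECs), and control fibroblasts whose sample names carry PMX, the name of the retroviral backbone. Values given below for iECs are those of whole *Sox17*-*Erg* cultures, not of sorted cells. In the study's flow cytometry a minority of the *Sox17*-*Erg* cells carried both PECAM1 and CDH5 at Day 7. Each treatment has 2 libraries for each time point (Day 3, Day 7, 4 weeks), which gives 6 groups and 12 libraries. Per the study's methods, hearts of neonatal mice were pooled and fibroblasts were selected with a THY1 antibody, so a library is not 1 animal. For its characterization of iECs the study describes removing PECAM1-positive cells from the starting fibroblasts, to limit carry-over of neonatal endothelium. The labels give EGM2, an endothelial growth medium, as the medium of all 12 samples. The labels call the samples replicates without saying that they came from separate isolations, so p-values measure the spread between these libraries only.

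Notch receptors are cut when a ligand on a neighboring cell binds them, and the freed intracellular part enters the nucleus and joins RBPJ to turn on target genes such as those of the Hes and Hey families. In endothelium, NOTCH1 and NOTCH4 with the ligands DLL4 and JAG1 are known for arterial identity and for choosing tip and stalk cells in a sprout, while NOTCH3 is best known as the receptor of vascular smooth muscle cells and pericytes. NRARP is made in response to the pathway and destabilizes the complex on DNA, so its transcript is often read as a sign of pathway activity.

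The promoters of *Notch4*, *Jag1*, *Nrarp* and *Dll4* are shown because these are an endothelial receptor, the ligand with the earliest difference, the feedback gene and the ligand with the largest difference below. Each window runs from 250 bases before to 50 bases after the annotated start in RefSeq GRCm38.p6, 5′ to 3′ on the gene's strand. The windows are chr17:34564045-34564344 for *Notch4* on the plus strand, chr2:137116471-137116770 for *Jag1* on the minus strand, chr2:25180508-25180807 for *Nrarp* on the plus strand and chr2:119325534-119325833 for *Dll4* on the plus strand. Capitals mark ACAAT, a SOX core, and AGGAAG, an ETS core, the families of SOX17 and ERG, on either strand.
Notch4: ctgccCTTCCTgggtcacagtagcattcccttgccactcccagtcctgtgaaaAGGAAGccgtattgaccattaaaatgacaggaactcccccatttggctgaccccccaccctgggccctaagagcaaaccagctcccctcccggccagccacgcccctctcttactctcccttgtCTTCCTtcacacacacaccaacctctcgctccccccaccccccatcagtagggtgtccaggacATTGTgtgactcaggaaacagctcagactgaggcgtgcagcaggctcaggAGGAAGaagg
Jag1: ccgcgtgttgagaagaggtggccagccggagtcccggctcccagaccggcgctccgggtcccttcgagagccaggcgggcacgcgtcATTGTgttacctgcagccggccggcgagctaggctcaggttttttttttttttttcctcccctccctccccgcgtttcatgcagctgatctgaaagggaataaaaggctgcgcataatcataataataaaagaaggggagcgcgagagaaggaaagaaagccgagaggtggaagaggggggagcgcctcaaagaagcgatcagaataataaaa
Nrarp: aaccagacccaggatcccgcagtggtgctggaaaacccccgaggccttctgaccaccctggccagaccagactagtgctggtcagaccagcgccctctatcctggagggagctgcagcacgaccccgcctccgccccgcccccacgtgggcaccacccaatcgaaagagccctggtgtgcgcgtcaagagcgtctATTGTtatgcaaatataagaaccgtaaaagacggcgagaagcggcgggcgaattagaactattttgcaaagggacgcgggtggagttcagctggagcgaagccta
Dll4: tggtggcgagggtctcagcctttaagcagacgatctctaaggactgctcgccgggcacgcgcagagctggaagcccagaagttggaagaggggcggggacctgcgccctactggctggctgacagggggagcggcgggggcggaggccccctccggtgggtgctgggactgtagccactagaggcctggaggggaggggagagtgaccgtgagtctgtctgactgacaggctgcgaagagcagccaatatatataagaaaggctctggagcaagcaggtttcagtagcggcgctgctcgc
The other letters searched were CCGGAA for ETS and TGGGAA for RBPJ, each on both strands. No motif contains another, although the ETS and RBPJ letters have a GGAA stretch in common. ACAAT was in a window of 4 of the 10 members (*Notch4*, *Dll1*, *Jag1* and *Nrarp*) and in 10192 of all 32851 promoter windows. AGGAAG was in 2 members, *Notch4* with 4 matches and *Dll1* with 1, and in 35.4% of all windows. TGGGAA was in 1 member, *Rbpj* itself, against 25.6% of all windows, and CCGGAA was in 0, against 14.9%. The window of *Notch4* held both a SOX core, 10 bases before the start, and ETS cores, and the *Dll4* window held none of these letters. A match of a few letters describes the sequence and is not a binding site, and its absence says nothing about the factors.

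Library totals ran from 19011635 to 41240449 estimated counts, and libraries of 1 group correlated by 0.969 to 0.979 across genes on the log2 scale. *Sox17* had 0 to 9 counts in the control libraries and at least 10019 in every *Sox17*-*Erg* library, as labelled. *Erg* had 389 to 1842 counts in the *Sox17*-*Erg* libraries, 49 and 34 in control replicate 2 of Day 3 and Day 7, and 2 to 4 in the other control libraries. These counts do not tell the retroviral copy from the mouse gene. Control replicate 2 at Day 3 and at Day 7 held transcripts of *Cdh5*, which encodes the endothelial junction protein VE-cadherin, at 14.3 and 8.08 CPM, against 0.910 and 0.230 in replicate 1. In the *Sox17*-*Erg* libraries *Cdh5* ran from 148 to 496 CPM. CPM is the count relative to library size after TMM scaling.

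Of the 10 members, 7 were higher with *Sox17*-*Erg* at 1 or more time points, and 3 (*Notch2*, *Dll1* and *Rbpj*) passed the test at none. At Day 3, 2 of the 10 passed the test as higher (*Notch3* and *Jag1*), where 7.19% of all tested genes were called higher. With DESeq2 the Day 3 count was 4, with *Notch1* and *Notch4* added, where 18.3% of all genes were called in either direction. With equal replicate numbers paired as a block within each time point it was 5, with *Notch1*, *Notch4* and *Dll4* added, where 23.2% of all genes were called. At Day 7, 6 were higher (*Notch1*, *Notch3*, *Notch4*, *Dll4*, *Jag1* and *Jag2*), against 9.48% of all genes. At 4 weeks these 6 and *Nrarp* were higher, against 11.9% of all genes. A call was an adjusted p under 0.05 in edgeR's quasi-likelihood test with Benjamini-Hochberg adjustment over all tested genes. No member was called lower at any time point by edgeR, where 5.13%, 7.93% and 11.0% of all genes were, with 0 lower at an unadjusted p under 0.05 and 0 lower by DESeq2. The median log2 fold change of the 10 members was 0.57 (Day 3), 2.03 (Day 7) and 2.57 (4 weeks), and that of all tested genes was 0.010, 0.0058 and -0.014. Both *Sox17*-*Erg* libraries lay above both control libraries at each of the 3 time points for 6 members (*Notch1*, *Notch3*, *Notch4*, *Dll4*, *Jag1* and *Nrarp*), as they did for 14.6% of all tested genes. In bulk RNA a change in the number of cells that make a transcript and a change in its amount per cell cannot be told apart.

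**Figure D1:**
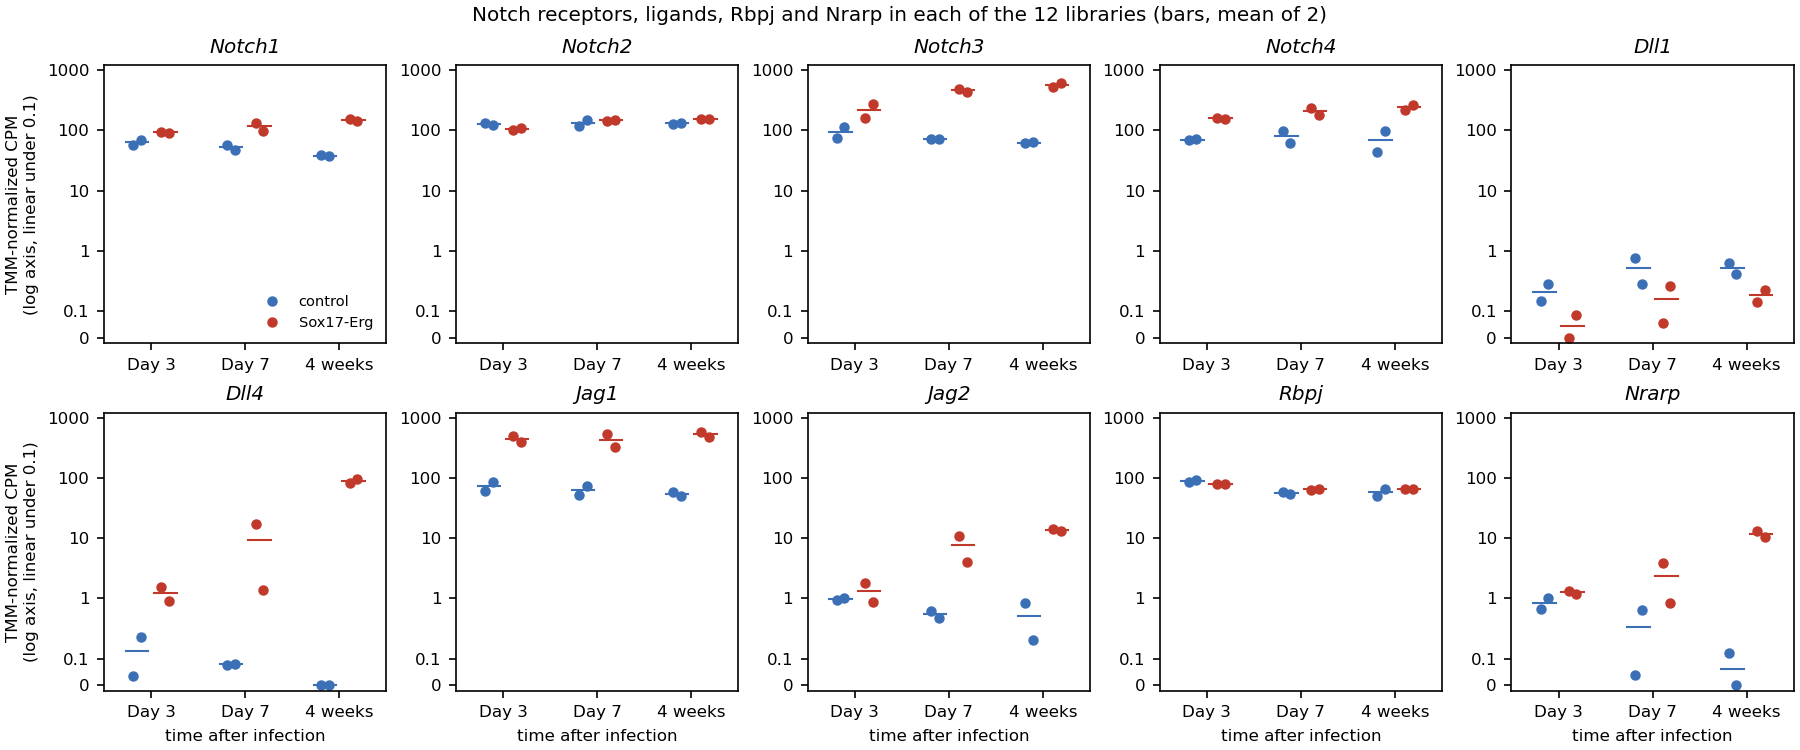
TMM-normalized CPM of each member in each of the 12 libraries (points) with the mean of the 2 libraries (bars), on a log axis that is linear under 0.1, by time point and treatment. *Notch3*, *Notch4* and *Jag1* separate by treatment at every time point, *Dll4*, *Jag2* and *Nrarp* climb from about 1 CPM to between 10.6 and 94.9 CPM in the *Sox17*-*Erg* libraries, and *Notch2* and *Rbpj* stay between 50.4 and 156 CPM in all libraries.

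**Figure D2:**
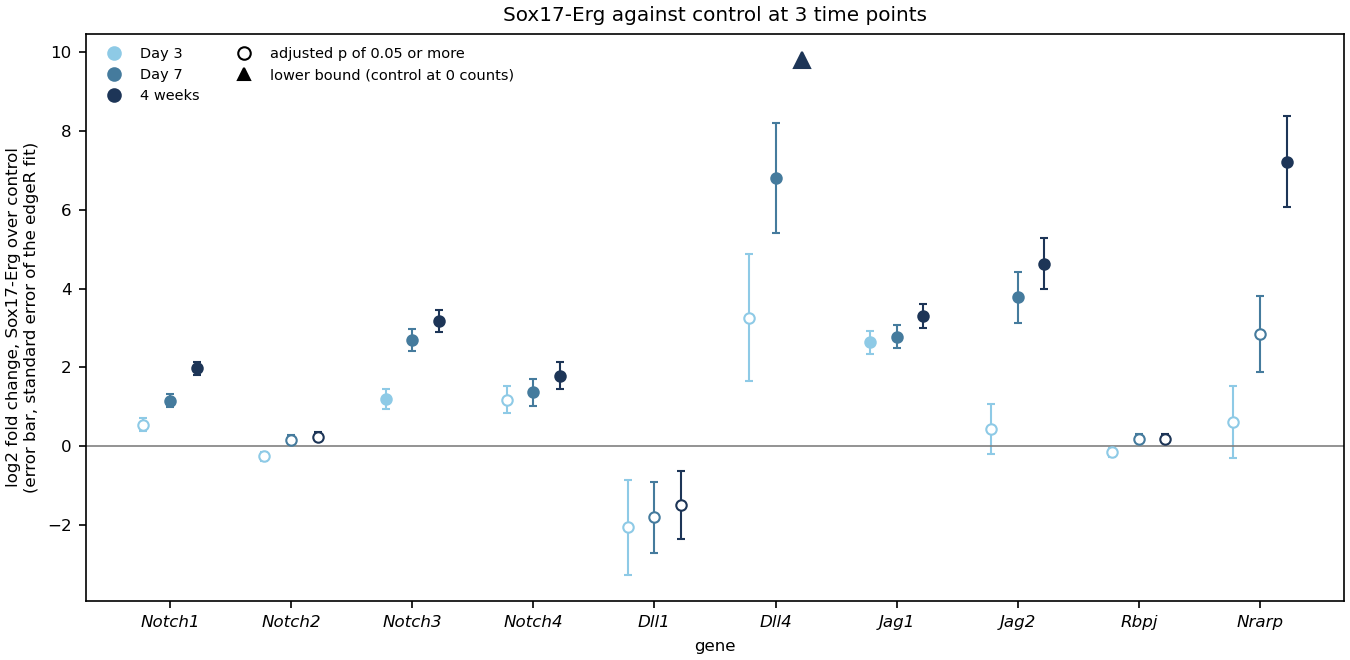
Log2 fold change of *Sox17*-*Erg* over control for each member at 3 time points, with the standard error of the edgeR fit. Filled points passed the test, open points did not, and the triangle is a lower bound for *Dll4* at 4 weeks, where both control libraries had 0 counts.

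*Notch1* (chr2:26457903-26516663, minus strand, in GRCm38 as all gene positions here), a receptor of endothelial and many other cells, was measured in the control libraries at 58.1 and 68.3 CPM (Day 3), 58.0 and 46.6 CPM (Day 7) and 38.9 and 37.2 CPM (4 weeks). In the *Sox17*-*Erg* libraries it was at 92.1 and 91.8 CPM, 134 and 97.9 CPM, and 156 and 144 CPM. The groups did not overlap at any time point, and the gap opened from both sides as control values went down and *Sox17*-*Erg* values went up. The log2 fold change was 0.54 (SE 0.16, adjusted p = 0.062), 1.15 (SE 0.17, adjusted p = 0.0021) and 1.98 (SE 0.17, adjusted p = 8.9e-05), in order of time. The Day 3 value passed with DESeq2 (adjusted p = 0.037), with no filter on low counts (0.024), with the time point fitted alone (0.040), with a GC offset (0.048), with the replicate block (0.010) and without *Sox17*-*Erg* replicate 1 of Day 7 (0.036).

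*Notch3* (chr17:32120820-32166852, minus strand) had the largest differences among the receptors at Day 7 and 4 weeks. Its control values were 74.3 and 115 CPM (Day 3), 70.9 and 71.0 CPM (Day 7) and 62.6 and 62.8 CPM (4 weeks), and its *Sox17*-*Erg* values were 163 and 270 CPM, 491 and 427 CPM, and 520 and 610 CPM. The replicates agreed closely at the later time points and were spread at Day 3, where replicate 2 was the higher library of both groups. At the 3 time points the difference on the log2 scale was 1.19 (SE 0.26, adjusted p = 0.020), 2.69 (SE 0.27, adjusted p = 0.00037) and 3.17 (SE 0.27, adjusted p = 9.3e-05). The Day 3 call was lost when that time point was fitted alone (adjusted p = 0.063) and rested on single libraries, with an adjusted p of 0.13 without control replicate 1 of Day 3, at a log2 fold change of 0.91, and of 0.083 without *Sox17*-*Erg* replicate 2, at 0.78.

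Because *Notch3* also marks mural cells, 12 genes of pericytes and smooth muscle were read beside it. Their summed level was 3837 to 4156 CPM in control and 5357 to 5390 CPM in *Sox17*-*Erg* libraries (Day 3), 1209 to 1848 and 2695 to 5409 CPM (Day 7) and 1639 to 3218 and 4937 to 5050 CPM (4 weeks). Of the 11 tested, 2 were higher (Day 3), 6 higher and 1 lower (Day 7) and 5 higher and 3 lower (4 weeks), where 7.19%, 9.48% and 11.9% of all genes were higher and 5.13%, 7.93% and 11.0% lower. *Mcam*, a surface protein of mural and endothelial cells, and *Rgs5*, a pericyte gene, were higher at every time point. *Kcnj8* and *Abcc9*, which encode a potassium channel of cardiac pericytes, were lower at 4 weeks, by log2 fold changes of -2.34 and -2.33, and *Vtn* had 0 counts in all 12 libraries. The part of mural transcripts in the *Notch3* values was not tested.

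*Notch4* (chr17:34564268-34588503, plus strand) is a receptor known mainly from endothelium, and the control fibroblast cultures held its transcripts as well. Its control values were 68.9 and 71.0 CPM (Day 3), 97.3 and 62.6 CPM (Day 7) and 43.2 and 96.5 CPM (4 weeks). The *Sox17*-*Erg* values were 162 and 154 CPM, 234 and 178 CPM, and on average 241 ± 35.6 CPM (SD, n = 2) at 4 weeks, above both controls each time, and the 2 control libraries of 4 weeks were far apart. The log2 fold change was 1.18 (SE 0.34, adjusted p = 0.054), 1.37 (SE 0.34, adjusted p = 0.026) and 1.79 (SE 0.35, adjusted p = 0.0060). The 4-week value ran from 1.32 to 2.49 when 1 library was left out. At Day 7 the adjusted p was 0.053 with the time point fitted alone and rose to 0.15 without control replicate 2 of that day, at a log2 fold change of 1.09, and to 0.16 without *Sox17*-*Erg* replicate 1, at 1.16. The Day 3 value passed with DESeq2 (adjusted p = 0.0062), with no filter (7.5e-05), with that time point alone (0.011), with the GC offset (0.043), with the replicate block (0.0076) and without control replicate 1 or 2 of 4 weeks (0.019 and 0.022).

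*Notch2* (chr3:98013527-98150361, plus strand), a receptor also used in many tissues outside vessels, ran from 117 to 146 CPM in the 6 control libraries and from 103 to 156 CPM in the 6 *Sox17*-*Erg* libraries. Both *Sox17*-*Erg* libraries lay below both controls at Day 3 and above both at 4 weeks, and the groups overlapped at Day 7. The log2 fold change was -0.26 (SE 0.12, adjusted p = 0.18), 0.16 (SE 0.12, adjusted p = 0.40) and 0.24 (SE 0.12, adjusted p = 0.19), and none passed the test. In the exact two-sided permutation test within time points, whose smallest possible p is 0.0093, *Notch2* gave p = 0.65, and *Notch1*, *Notch3* and *Notch4* each gave that smallest p.

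Among the ligands, *Jag1* (chr2:137081456-137116644, minus strand), which encodes Jagged1, stood apart from Day 3 on. Control values were 60.8 and 84.1 CPM (Day 3), 52.2 and 73.7 CPM (Day 7) and 58.3 and 49.9 CPM (4 weeks). *Sox17*-*Erg* values were 503 and 395 CPM, 541 and 322 CPM, and 588 and 486 CPM. Every *Sox17*-*Erg* library was far above every control library, and the iEC values of Day 3 overlapped those of 4 weeks. On the log2 scale the difference was 2.63 (SE 0.30, adjusted p = 0.0014), 2.78 (SE 0.30, adjusted p = 0.00051) and 3.31 (SE 0.30, adjusted p = 0.00013).

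*Dll4* (chr2:119325784-119335962, plus strand), the ligand of arterial and tip endothelial cells, was nearly absent from the control cultures. The control libraries had 1 and 5 counts (Day 3), 2 and 2 (Day 7) and 0 and 0 (4 weeks). The *Sox17*-*Erg* libraries had 31 and 21 counts (Day 3), 615 and 31 (Day 7) and 2356 and 2563 (4 weeks), or 1.57 and 0.905 CPM, 17.0 and 1.36 CPM, and 83.4 and 94.9 CPM. Replicate 1 of the Day 7 iECs was thus 12.4-fold above replicate 2, which was still at the level of Day 3, and both libraries of 4 weeks were high. At Day 3 the log2 fold change of 3.26 (SE 1.61) did not pass the test (adjusted p = 0.21), and it passed with no filter on low counts (adjusted p = 0.0023), with the replicate block (0.029) and without *Sox17*-*Erg* replicate 1 or 2 of Day 7 (0.013 in both fits). Leaving out 1 library moved the Day 3 value between 2.38 without control replicate 1 and 4.87 without control replicate 2 of that day. At Day 7 it was 6.81 (SE 1.40, adjusted p = 0.014), and the ratio of summed counts was 139 with a 95% exact binomial interval from 54.1 to 513, which covers counting error only. Without *Sox17*-*Erg* replicate 1 of Day 7 the log2 fold change fell to 4.04 (adjusted p = 0.014), and without control replicate 1 or 2 the adjusted p was 0.074 or 0.090, and with that time point fitted alone 0.070. At 4 weeks *Dll4* was at least 904-fold higher, with 3 counts per library as the floor for the control libraries (adjusted p = 0.0012).

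*Jag2* (chr12:112907819-112929776, minus strand), another Jagged ligand, overlapped between groups at Day 3, at 0.946 and 1.02 CPM in control and 1.82 and 0.862 CPM in *Sox17*-*Erg* libraries. At Day 7 it was at 0.614 and 0.482 CPM in control and 11.1 and 4.09 CPM in *Sox17*-*Erg* libraries, and at 4 weeks at 0.827 and 0.203 CPM against 14.3 and 13.1 CPM. The groups were apart from Day 7 on, and replicate 1 was the higher iEC library at Day 7 as it was for *Dll4*. On the log2 scale *Jag2* differed by 0.44 (SE 0.64, adjusted p = 0.69), 3.78 (SE 0.65, adjusted p = 0.0050) and 4.63 (SE 0.65, adjusted p = 0.0012). The Day 7 value was 2.89 without *Sox17*-*Erg* replicate 1 of that day and was still called. The 4-week value was 6.04 without control replicate 1 of 4 weeks and 4.05 without replicate 2, and was called in both fits. *Dll1* (chr17:15367354-15376872, minus strand), a ligand best known from somites and lymphoid tissue, had at most 25 counts in any library. Its control libraries had 4 and 6, 20 and 7, and 25 and 10 counts at the 3 time points and the *Sox17*-*Erg* libraries 0 and 2, 2 and 6, and 4 and 6. Both *Sox17*-*Erg* libraries were below both controls in CPM each time, but the log2 fold changes of -2.07 (SE 1.21, adjusted p = 0.28), -1.81 (SE 0.90, adjusted p = 0.20) and -1.50 (SE 0.87, adjusted p = 0.25) did not pass edgeR's test. They moved with single libraries, between -5.53 and -1.27, -3.19 and -0.93, and -1.88 and -1.14, and the -5.53 is no bound because it leaves a *Sox17*-*Erg* library at 0 counts. In the exact permutation test over the 3 time points *Dll1*, *Dll4* and *Jag1* each gave the smallest possible p of 0.0093, and *Jag2* gave p = 0.028, which was 0.056 without *Sox17*-*Erg* replicate 1 of Day 3.

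*Rbpj* (chr5:53466152-53657362, plus strand) encodes the DNA-binding protein that all 4 receptors act through. Its level was 86.2 and 91.9 CPM in control and 78.4 and 80.6 CPM in *Sox17*-*Erg* libraries (Day 3), 58.9 and 54.1 against 63.2 and 65.8 CPM (Day 7) and 50.4 and 65.1 against 65.9 and 65.5 CPM (4 weeks). Groups at the same time point differed little, and the order at Day 3 was the opposite of that at the later times. The log2 fold change was -0.16 (SE 0.12, adjusted p = 0.41), 0.19 (SE 0.12, adjusted p = 0.33) and 0.19 (SE 0.12, adjusted p = 0.32), with p = 0.41 in the exact permutation test. Of the 31-base words in *Rbpj* exons, 11.4% also occur in other genes, mostly in the pseudogene *Rbpj-ps3*, so its counts carry some uncertainty of assignment.

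*Nrarp* (chr2:25180758-25183339, plus strand), the feedback inhibitor, had 18 and 22 counts in control and 26 and 28 in *Sox17*-*Erg* libraries (Day 3), 1 and 16 against 143 and 19 (Day 7) and 5 and 0 against 373 and 285 (4 weeks). In CPM the iEC values were 1.32 and 1.21 (Day 3), 3.94 and 0.835 (Day 7) and 13.2 and 10.6 (4 weeks). As for *Dll4* and *Jag2*, Day 7 replicate 1 was the higher iEC library, and the groups were well apart at 4 weeks. The log2 fold change was 0.60 (SE 0.91, adjusted p = 0.71), 2.84 (SE 0.97, adjusted p = 0.075) and 7.23 (SE 1.16, adjusted p = 0.0025). The Day 7 value passed with DESeq2, at 2.82 (adjusted p = 0.017), and with no filter (adjusted p = 0.00024). At Day 7 *Nrarp* also passed edgeR's test without control replicate 2, at a log2 fold change of 5.83 (adjusted p = 0.046), or *Sox17*-*Erg* replicate 2, at 3.49 (adjusted p = 0.033), and was at 1.30 without *Sox17*-*Erg* replicate 1 (adjusted p = 0.57). At 4 weeks the value was 6.52 without control replicate 2, and without control replicate 1, which leaves a control library at 0 counts, it was 11.3 and is no bound; both were called. The ratio of summed counts at 4 weeks was 154, with a 95% exact binomial interval from 65.5 to 475 for counting error only. The exact permutation p was 0.0093, and 0.065 without *Sox17*-*Erg* replicate 1 of Day 7.

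The exons of *Notch1*, *Notch3*, *Dll1*, *Dll4* and *Nrarp* overlap exons of other annotated genes on the opposite strand. The libraries came from a stranded kit, and whether the quantification used the strand is not given in the sources used here. *Notch2* shares 4.28% and *Notch3* 1.35% of its 31-base words with 1 predicted gene each, *Gm42820* and *Gm30232*.

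Whether the effect itself grew between time points was tested as an interaction. From Day 3 to 4 weeks the *Sox17*-*Erg* effect was larger at 4 weeks for 4 members, against 2.22% of all tested genes: *Notch1* by 1.44 on the log2 scale (SE 0.23, adjusted p = 0.014), *Notch3* by 1.98 (SE 0.36, adjusted p = 0.022), *Jag2* by 4.20 (SE 0.89, adjusted p = 0.039) and *Nrarp* by 6.63 (SE 1.48, adjusted p = 0.048). *Jag2* was at 5.60 without control replicate 1 of 4 weeks and was lost with the GC offset (adjusted p = 0.054), as was *Nrarp* (0.055), which was also lost with the replicate block (0.057). The fitted value of *Nrarp* was 10.65 without control replicate 1 of 4 weeks, which leaves a control library at 0 counts. The effect on *Jag1* differed by 0.68 (SE 0.39, adjusted p = 0.44) and that on *Notch4* by 0.61 (SE 0.48, adjusted p = 0.60), which did not pass. For *Dll4* the fitted difference of 10.96 (SE 4.36, adjusted p = 0.25) rests on control libraries at 0 counts and is no bound, and it passed with DESeq2 (adjusted p = 0.00024), with no filter (0.00030), with the replicate block (0.043) and without *Sox17*-*Erg* replicate 1 or 2 of Day 7 (0.013 in both fits), so that DESeq2 called 5, where it called 6.99% of all genes. Leaving out 1 library at a time left between 0 and 5 members called. The count was 0 without *Sox17*-*Erg* replicate 1 of 4 weeks, 1 without the other *Sox17*-*Erg* library of 4 weeks, either control library of 4 weeks, either *Sox17*-*Erg* library of Day 3 or control replicate 2 of Day 3, and 2 without control replicate 1 of Day 3. These fits leave 1 library in a group, and fewer of all genes passed in them as well. For the shorter steps edgeR called 0 members from Day 3 to Day 7 and 0 from Day 7 to 4 weeks, against 0.0838% and 0.0387% of all genes, with 4 and 2 at an unadjusted p under 0.05 and 2 and 0 by DESeq2, which called 1.99% and 0.966% of all genes. With the replicate block *Notch3* passed from Day 3 to Day 7 (adjusted p = 0.020).

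Within the *Sox17*-*Erg* cultures, 6 members were higher at 4 weeks than at Day 3, where 15.1% of all genes were. *Notch1* rose by 0.70 (SE 0.16, adjusted p = 0.012), *Notch2* by 0.54 (SE 0.12, adjusted p = 0.010), *Notch3* by 1.38 (SE 0.26, adjusted p = 0.0051), *Dll4* by 6.18 (SE 1.03, adjusted p = 0.0041), *Jag2* by 3.36 (SE 0.61, adjusted p = 0.0046) and *Nrarp* by 3.23 (SE 0.88, adjusted p = 0.023), all on the log2 scale. The count was 3 without *Sox17*-*Erg* replicate 1 of Day 3, with *Notch3*, *Dll4* and *Jag2* still called, and 4 without replicate 2 of Day 3 or replicate 1 of 4 weeks. A group had 1 library left in these fits, and fewer of all genes passed as well. In the full fit *Jag1* differed by 0.26 (SE 0.28, adjusted p = 0.52) over the same time. Within control cultures 2 members were lower at 4 weeks than at Day 3, where 12.6% of all genes were: *Notch1* by -0.73 (SE 0.17, adjusted p = 0.013) and *Rbpj* by -0.63 (SE 0.12, adjusted p = 0.0072). *Nrarp* was at -3.39 (SE 1.22, adjusted p = 0.068) and passed with DESeq2, at -3.55 (adjusted p = 0.0082), so that DESeq2 called 3, where it called 29.3% of all genes in either direction, and with no filter (adjusted p = 0.00050). Both edgeR calls were lost without control replicate 2 of Day 3, at log2 changes of -0.62 (adjusted p = 0.078) and -0.59 (adjusted p = 0.052), and *Notch1* was also lost without control replicate 1 (adjusted p = 0.062) or 2 (adjusted p = 0.063) of 4 weeks. Treatment effects and changes within a group share libraries and are not independent of each other.

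To compare levels between genes, CPM was divided by the length of the gene's exons. In control cultures at 4 weeks *Notch2* ranked first at 12.1 ± 0.43 CPM per kb (SD, n = 2), before *Jag1* at 9.28 ± 1.01, *Notch4* at 8.67 ± 4.68 and *Notch3* at 7.75 ± 0.015. The libraries of *Notch4*, at 5.36 and 11.97 CPM per kb, spanned the values of *Jag1* and *Notch3* and reached those of *Notch2*. In the iECs at 4 weeks *Jag1* ranked first at 92.1 ± 12.4 CPM per kb, followed by *Notch3* at 69.8 ± 7.86, *Notch4* at 29.9 ± 4.42, *Dll4* at 23.1 ± 2.12, *Notch2* at 14.3 ± 0.31 and *Notch1* at 10.5 ± 0.63. *Jag1* and *Notch3* did not overlap between libraries, though the gap of 83.4 to 75.4 CPM per kb was within their spread, and *Notch4* and *Dll4* stood close at 26.7 and 24.6 CPM per kb in their nearest libraries. *Rbpj* was at 5.17 and 5.14 CPM per kb and *Nrarp* at 5.11 and 4.09, and *Jag2* at 1.97 ± 0.12 and *Dll1* at 0.043 ± 0.014 came last. The order depends on the length taken. With the longest transcript in place of all exons, tried after seeing the data, *Notch1* at 15.8 ± 0.94 lay above *Notch2* at 14.6 ± 0.32 in the iECs of 4 weeks. *Rbpj*, whose exons add up to 12750 bases against 5485 in the longest transcript, was at 12.02 and 11.94 CPM per kb there. It ranked next above *Nrarp* with either length. In control cultures at 4 weeks *Jag1* moved from rank 2 to rank 4 and *Rbpj* from rank 5 to rank 3.

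The makeup of the receptor transcripts differed between groups. *Notch2* made 32.4%, 35.5% and 39.2% of the summed level of the 4 receptors in control cultures at the 3 time points and 15.8%, 13.2% and 11.5% in the iECs, with the smallest possible exact permutation p of 0.0093. *Notch3* made 31.7%, 25.4% and 25.2% in control and 42.1%, 54.6% and 56.0% in the iECs (exact permutation p = 0.019). The exact permutation p was 0.94 for the share of *Notch4* and 0.065 for that of *Notch1*. The level of *Notch2* itself did not pass the test at any time point.

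Among the ligands *Jag1* made between 96.9% and 98.8% of the summed level in every control library. In the iECs it made 99.2% and 99.4% (Day 3), 93.9% and 98.2% (Day 7) and 80.9% and 75.8% (4 weeks), with an exact permutation p of 0.16. The share of *Dll4* in the iECs was 0.468% and 0.345% (Day 3), 4.46% and 0.628% (Day 7) and 17.4% and 22.4% (4 weeks), while it was 0.408% or less in every control library (exact permutation p = 0.019). That p was 0.074 without either control library of Day 7. *Jag1* was thus the main ligand transcript at every time point, and *Dll4* took a visible share at 4 weeks. The exact permutation p was 0.54 for the share of *Jag2* and 0.0093 for that of *Dll1*, or 0.056 without either *Sox17*-*Erg* library of Day 7.

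**Figure D3:**
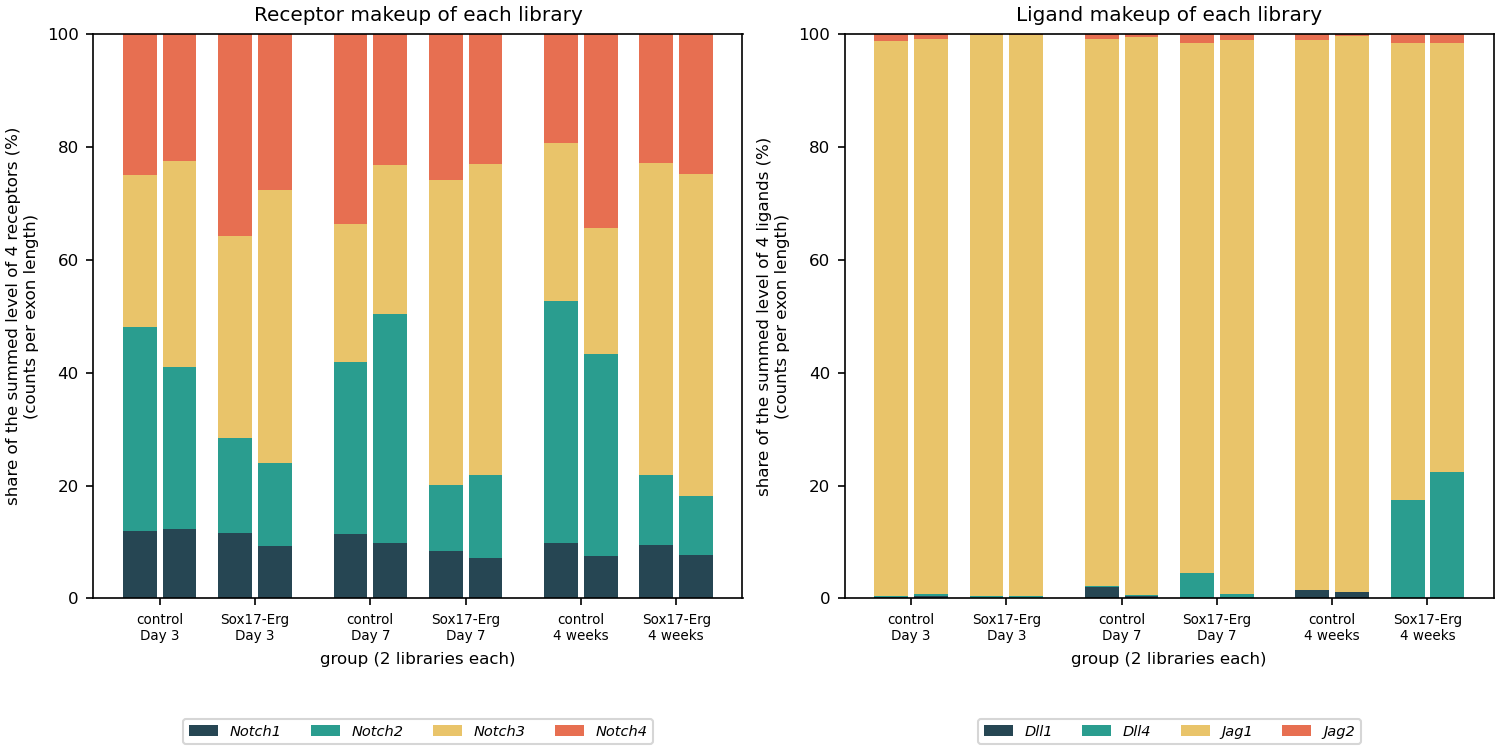
Share of each receptor (left) and each ligand (right) in the summed level of its class, in counts per exon length, for each library, with 2 bars per group. The *Notch3* share is above 50% in all *Sox17*-*Erg* libraries of Day 7 and 4 weeks, and *Dll4* reaches 17.4% and 22.4% of the ligands at 4 weeks.

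Set against *Cdh5* in the same library and per exon length, *Dll4* was at 0.822% and 0.667% of the *Cdh5* level in the iECs (Day 3), 4.62% and 0.598% (Day 7) and 18.3% and 26.3% (4 weeks). *Jag1* was at 174% and 192% of *Cdh5* (Day 3), 97.4% and 93.6% (Day 7) and 85.5% and 89.0% (4 weeks). The *Dll4* ratio was thus highest and the *Jag1* ratio lowest at 4 weeks, and the *Jag1* ratio was nearly the same in both libraries of Day 7, where *Dll4* differed. *Notch4* was at 40.6% and 54.3%, 30.5% and 37.5%, and 22.7% and 35.2% of *Cdh5* over the same times. *Cdh5* was chosen as the reference after its values were seen, and these ratios were not tested. They depend on the reference: set against *Pecam1*, which encodes another endothelial surface protein, *Jag1* was at 2278% and 1833% (Day 3), 1005% and 1024% (Day 7) and 535% and 549% (4 weeks), and *Dll4* at 10.8% and 6.36%, 47.7% and 6.55%, and 115% and 162%. Of 12 endothelial markers, 11 were tested, and 4 were higher (Day 3), 5 (Day 7) and 7 (4 weeks) with *Eng* lower, where 7.19%, 9.48% and 11.9% of all genes were higher and 11.0% lower at 4 weeks. Their summed level was 398 to 543 CPM in control and 663 to 671 CPM in *Sox17*-*Erg* libraries (Day 3), 652 to 979 and 970 to 1071 CPM (Day 7) and 989 to 1525 and 1146 to 1351 CPM (4 weeks). *Cldn5*, a tight junction marker of endothelium, had at most 1 count in each library of 4 weeks.

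The other genes of the pathway were followed as a list of 54 in 8 roles, of which 51 were tested. Of these, 6 were higher and 1 lower by Day 3, 9 and 3 by Day 7, 10 and 3 by 4 weeks. Of all genes, increases were called in 7.19%, 9.48% and 11.9%, and decreases in 5.13%, 7.93% and 11.0%, in order of time. With the replicate block 13 of the 51 were called at Day 3, 8 higher and 5 lower, where 23.2% of all genes were called. Their median log2 fold change stayed near 0, at 0.016, 0.081 and 0.054. The largest increases were those of Hey genes, transcriptional repressors and classic Notch targets. *Hey1* was at 0.182 and 0.231 CPM in control and 6.78 and 3.53 CPM in *Sox17*-*Erg* libraries (Day 3), 0.230 and 0.522 against 28.8 and 8.61 CPM (Day 7) and 0.977 and 0.529 against 49.2 and 54.1 CPM (4 weeks). Its log2 fold change was 4.62 (SE 0.78, adjusted p = 0.0087), 5.63 (SE 0.69, adjusted p = 0.0010) and 6.04 (SE 0.65, adjusted p = 0.00028). The Day 7 value ran from 4.51 to 6.32 when 1 library was left out. *Heyl* was higher by 3.17, 4.43 and 4.05 and *Hey2* by 2.51, 2.49 and 3.53, all called. The Day 3 calls of *Hey1* and *Heyl* were lost without control replicate 1 (adjusted p = 0.077 and 0.056) or 2 (adjusted p = 0.066 and 0.061) of that day, and that of *Hey1* also without *Sox17*-*Erg* replicate 1 (adjusted p = 0.063).

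Of the Hes genes, *Hes1*, the Notch target used by most cell types, was higher by 0.87 (SE 0.18, adjusted p = 0.0099) at Day 7 and 1.15 (SE 0.18, adjusted p = 0.0018) at 4 weeks, and its Day 3 value of 0.32 (SE 0.17, adjusted p = 0.26) did not pass. At Day 7 the *Hes1* call was lost without control replicate 2 (adjusted p = 0.061) or *Sox17*-*Erg* replicate 1 (adjusted p = 0.075). *Hes5* had 3 counts in each *Sox17*-*Erg* library of 4 weeks and 0 elsewhere and was not tested, and *Hes7*, at most 30 counts in any library, was called lower at Day 3 only without *Sox17*-*Erg* replicate 2 of that day (adjusted p = 0.045).

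Of the 10 genes that process the receptor, 1 was called higher (Day 3), then 2 (Day 7) and 2 (4 weeks), and 1, 1 and 2 were called lower, where 7.19%, 9.48% and 11.9% of all genes were higher and 5.13%, 7.93% and 11.0% lower. *Aph1b*, a subunit of the gamma-secretase that frees the intracellular part, was at 7.64 and 7.03 CPM in control and 47.5 and 32.7 CPM in *Sox17*-*Erg* libraries (Day 3), 8.99 and 6.07 against 53.7 and 30.4 CPM (Day 7) and 6.26 and 7.24 against 18.0 and 25.4 CPM (4 weeks). Its log2 fold change was 2.45 (SE 0.33, adjusted p = 0.0031), 2.48 (SE 0.32, adjusted p = 0.0014) and 1.69 (SE 0.32, adjusted p = 0.0053). *Psen2*, a catalytic subunit of the same enzyme, was lower by -0.92 (adjusted p = 0.016), -0.83 (adjusted p = 0.015) and -0.77 (adjusted p = 0.015). Its adjusted p was above 0.05 without 1 of the libraries in 8 cases, among them *Sox17*-*Erg* replicate 1 of Day 3 (0.14), of Day 7 (0.11) or of 4 weeks (0.11), and at Day 7 with that time point fitted alone (0.081). *Furin*, the protease that first cuts the receptor in the secretory pathway, was higher by 0.74 (adjusted p = 0.0048) at Day 7 and 0.96 (adjusted p = 0.00088) at 4 weeks. The *Furin* call of Day 7 was lost with that time point fitted alone (adjusted p = 0.061), and its Day 3 value of 0.41 (adjusted p = 0.063) passed with DESeq2 (0.026), the GC offset (0.038) and the replicate block (0.037).

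Of the remaining named genes, *Neurl1b*, an E3 ligase that acts on ligands, was higher at 4 weeks by 1.93 (SE 0.58, adjusted p = 0.041), a call that was lost when any of 8 libraries was left out, with an adjusted p of up to 0.23. *Dlk1*, a ligand-like protein without the part that activates receptors, was at 36.0 and 6.75 CPM in control and 1.60 and 1.45 CPM in *Sox17*-*Erg* libraries at Day 7, lower by -3.80 (SE 0.71, adjusted p = 0.0072), and its values of -1.97 at Day 3 and -3.38 at 4 weeks did not pass. Both passed with DESeq2 (adjusted p = 0.020 and 0.0035), with no filter (0.00032 and 0.00012), with the replicate block (0.033 and 0.042) and with each time point fitted alone (0.021 and 0.038), where the Day 7 call was lost (0.064). Without *Sox17*-*Erg* replicate 1 of Day 7 that call was also lost (adjusted p = 0.068), without control replicate 1 of Day 7 the log2 value was -2.17 and still called, and without control replicate 1 or 2 of Day 7 *Dlk1* passed at Day 3 (adjusted p = 0.017 and 0.014) and at 4 weeks (adjusted p = 0.0051 and 0.0050). *Rbpjl*, a relative of *Rbpj*, was lower at Day 7 by -3.71 (SE 0.85, adjusted p = 0.017) on 17 and 33 control counts against 1 and 3, and was lost without control replicate 2 (adjusted p = 0.10) or *Sox17*-*Erg* replicate 1 (adjusted p = 0.17) of that day. The 10 tested genes of receptor turnover had 0 calls at any time point by edgeR, with 0, 2 and 2 at an unadjusted p under 0.05 and 0, 0 and 1 by DESeq2 at Day 3, Day 7 and 4 weeks. Of all genes edgeR called 7.19%, 9.48% and 11.9% higher and 5.13%, 7.93% and 11.0% lower at these times. DESeq2 called 18.3%, 21.1% and 25.9% in either direction.

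**Figure D4:**
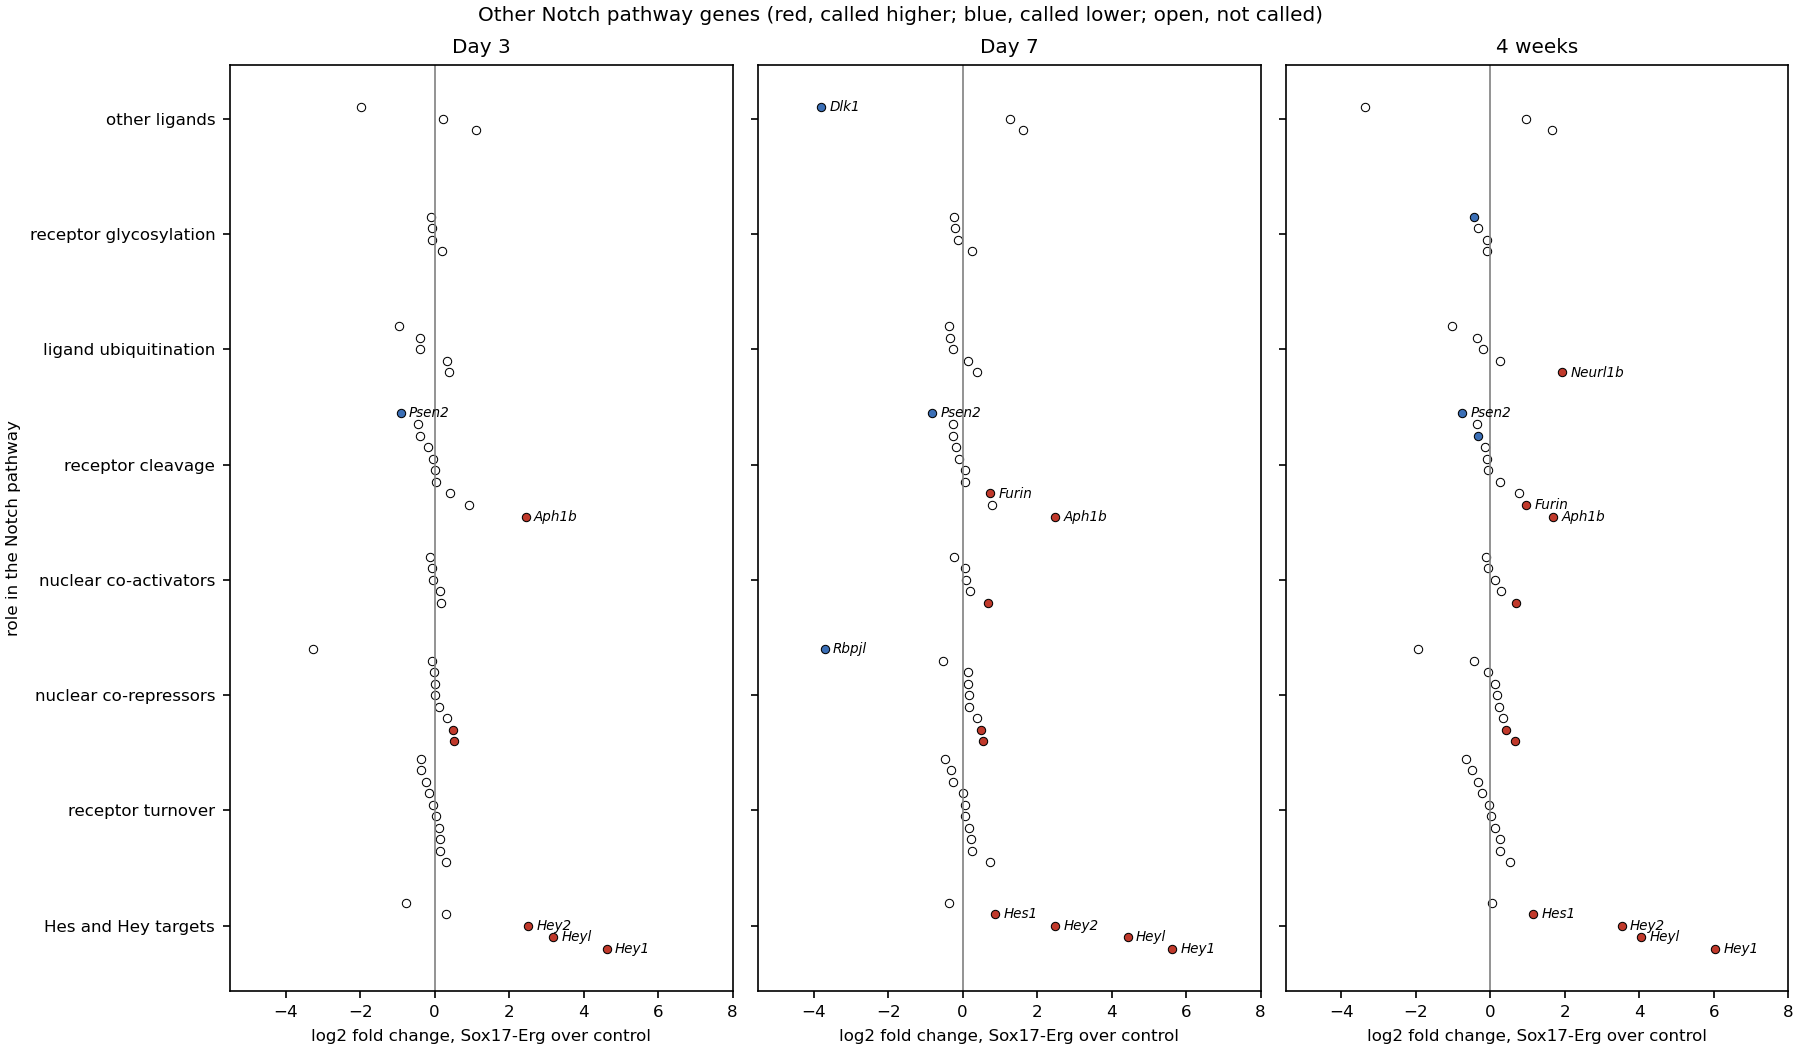
Log2 fold change of *Sox17*-*Erg* over control for the 51 tested genes of the wider pathway, by role and time point. Red points were called higher, blue points lower and open points were not called, and the named genes that were called are labelled. The Hey genes lie farthest to the right at each time point, and the genes of receptor turnover sit around 0.

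Genes with the most similar pattern over the 12 libraries were found by Pearson correlation of log2 CPM, which describes libraries that share treatment and time and carries no test. For *Jag1* these were *Glb1l2* (r = 0.99), *Sox17* (r = 0.99) and *Slc4a7* (r = 0.99), for *Notch3* they were *Bcl6b*, *Lypla2* and *Npffr1* (each r = 0.98), and for *Notch1* they were *Ccn3*, *Ltbp1* and *Ephb3* (each r = 0.98). For *Notch4* they were *Sertad4* (r = 0.97), *St8sia2* (r = 0.96) and *Crabp1* (r = 0.96). For *Dll4* they were *Ap3b2* (r = 0.98), *Nudt4* (r = 0.98) and *Slc45a4* (r = 0.97), and for *Jag2* they were *Kcnma1* (r = 0.98), *Tgfb2* (r = 0.97) and *Npy4r* (r = 0.97). For *Nrarp* they were *Usp13* (r = 0.96), *Dcaf6* (r = 0.95) and *Rasgef1a* (r = 0.95). The members not called had their own neighbors: *Dnal1* (r = 0.94), *Serac1* (r = 0.92) and *Zfp316* (r = 0.92) for *Notch2*, *Orai1* (r = 0.95), *Gpr182* (r = 0.95) and *Tmem126b* (r = 0.94) for *Dll1*, and *Ehbp1l1* (r = 0.97), *Cap1* (r = 0.96) and *Pfkp* (r = 0.95) for *Rbpj*. Among the members themselves *Notch1* and *Notch3* correlated by 0.95 and *Dll4* and *Jag2* by 0.94, while *Rbpj* and *Jag2* correlated by 0.0020.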

How the data were processed

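Bulk RNAseq counts of 12 libraries were analysed. Reads were demultiplexed with bcl2fastq 2.20.0, BBDuk trimmed reads of high GC content, and the authors quantified transcripts with Salmon and deposited estimated counts per Ensembl gene, which are whole numbers and not scaled for library size. The genome named in the labels is mm10, and the Salmon version and annotation are not given in the sources used here. Symbols, positions, exon lengths and overlaps came from GENCODE M21 (GRCm38), which held 35422 of the 35727 genes.

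Differences were tested with edgeR 4.0.16 under R 4.3.3 (TMM, filterByExpr with a minimum count of 10 and minimum total of 15, quasi-likelihood, each group with its own mean, 6 residual degrees of freedom). Adjusted p-values are Benjamini-Hochberg values over all 15506 tested genes, called under 0.05. SE is the log2 fold change over the root of F. For a single member, labels were permuted exactly inside each time point on log2 CPM with a prior count of 2, and shares of the receptor or ligand level in the same way. With 2 libraries against 2, the smallest exact permutation p of 1 time point alone is 0.33. Chi-square values between replicates, divided by degrees of freedom, were 27.4 to 70.4, above counting error, so depth adds little to the error of well-counted genes. Floors and intervals cover counting error only. What a replicate number stands for is not stated in the labels, but deviations of equal numbers from their group means correlated by 0.19, 0.30 and 0.17 between treatments at the 3 time points, so a fit with a replicate block within each time point is given where it changes a call. Between 4 weeks and the earlier times they correlated by -0.14 to -0.0064.

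The members and the lists of pathway and marker genes were chosen with earlier results of these data known. Named were the 10 members, the 10 pathway genes with the largest change among those called, the 6 Hes and Hey genes, and for each member the 3 genes with the highest correlation. Marker lists for endothelial, fibroblast, pericyte and smooth muscle, cardiomyocyte, macrophage, mesothelial and epicardial, and Schwann cells were read beside the members. Alternatives were DESeq2 1.42.0, its size factors, other filters, single time points, replicate blocks, a GC offset, transcript length, stricter thresholds and leaving out each library. The fit was also run on simulated counts drawn independently for each library, unlike these data, so that run does not bear on the calls. The authors' other experiments were not analysed here.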

Additional observations from a re-analysis of the deposited data

Results flagged for a closer look

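For 4 members the *Sox17*-*Erg* minus control effect itself differed between Day 3 and 4 weeks in edgeR's interaction test with Benjamini-Hochberg adjustment over all 15506 tested genes. The difference was 1.44 on the log2 scale for *Notch1* (SE 0.23, adjusted p = 0.014). It was 1.98 for *Notch3* (SE 0.36, adjusted p = 0.022), 4.20 for *Jag2* (SE 0.89, adjusted p = 0.039) and 6.63 for *Nrarp* (SE 1.48, adjusted p = 0.048). In each case the effect was the larger one at 4 weeks. With a GC offset *Jag2* and *Nrarp* did not pass (adjusted p = 0.054 and 0.055), and *Nrarp* did not with the replicate block within time points either (0.057). *Jag2* and *Nrarp* rest on few counts in the control libraries of 4 weeks, 33 and 5 for *Jag2* and 5 and 0 for *Nrarp*, and without *Sox17*-*Erg* replicate 1 of 4 weeks none of the 4 passed, with adjusted p-values of 0.060, 0.061, 0.12 and 0.15.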

How the results depend on the processing

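At 4 weeks the same 7 members were called under every alternative fit and without any single library. At Day 3 the count of 2 became 4 with DESeq2, 5 with no filter on low counts, 4 with a GC offset and 1 at an adjusted p under 0.01, and ran from 1 to 4 without 1 library, where 18.3%, 11.1%, 11.6%, 2.72% and 1.69% to 12.3% of all genes were called, and at Day 7 the count of 6 became 7 with DESeq2 or no filter and 4 at an adjusted p under 0.01 or with the time point fitted alone, when *Notch4* and *Dll4* were lost, and ran from 5 to 7 without 1 library, where 21.1%, 13.3%, 7.10%, 7.46% and 5.69% to 15.5% of all genes were called. For differences of effect the count from Day 3 to Day 7 became 2 with DESeq2 or no filter and that from Day 7 to 4 weeks 1 with no filter, while that from Day 3 to 4 weeks became 2 with the GC offset and 0 at an adjusted p under 0.01 and ran from 0 to 5. Within control the count became 4 with no filter, 1 at an adjusted p under 0.01 and 0 with a minimum log2 fold change of 1, and ran from 0 to 3. Within *Sox17*-*Erg* it became 3 at an adjusted p under 0.01 and ran from 3 to 6. Pathway genes called became 5 at Day 7 when that time point was fitted alone, 4, 7 and 7 at an adjusted p under 0.01 and 4, 6 and 6 with the minimum fold, and ran from 2 to 8, 5 to 12 and 7 to 13. Of all genes, DESeq2 or no filter called 1.99% and 1.76% as differing in effect from Day 3 to Day 7, no filter 0.954% from Day 7 to 4 weeks, and the GC offset and the stricter p 2.68% and 0.793% from Day 3 to 4 weeks. Within control the settings named called 18.0%, 11.1% and 13.2%, and within *Sox17*-*Erg* 13.7%. At the stricter p 2.72%, 7.10% and 11.8% of all genes differed by treatment, and with the minimum fold 6.02%, 10.2% and 13.6%.

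Values near 0 changed sign. The *Rbpj* difference from Day 7 to 4 weeks was 0.021 with DESeq2, 0.020 with its size factors, 0.0030 with the stricter filter and -0.18 to 0.24 without 1 library. The *Notch4* change within control was 0.000602 with DESeq2, 0.0082 with no filter, 0.058 with the GC offset and -0.69 to 0.47 without 1 library, and *Hes7* at 4 weeks was -0.0099 with the GC offset and -0.27 to 0.44 without 1 library. Without 1 library *Jag2* at Day 3 ran from -0.23 to 0.89, *Notch2* at Day 7 from -0.016 to 0.32, *Neurl1b* at Day 7 from -0.42 to 1.13 and *Notch2* within control from -0.037 to 0.11. Differences of effect ran from -1.08 to 3.73, -0.57 to 1.69 and -0.23 to 4.03 for *Dll1* (Day 3 to Day 7, Day 7 to 4 weeks, Day 3 to 4 weeks), from -0.27 to 0.47 for *Jag1* and from -0.092 to 0.56 for *Notch4* from Day 3 to Day 7, and from -0.087 to 0.25 for *Notch2* and -0.050 to 1.16 for *Notch4* from Day 7 to 4 weeks. The permutation differences ran from -0.0055 to 0.099 for *Notch2*, 2.57 to 3.14 for *Jag2* and 2.87 to 3.76 for *Nrarp*, and the share differences from -2.19 to 2.83 points for *Notch4*, -1.97 to -1.17 for *Notch1*, -1.17 to -0.69 for *Dll1* and 6.63 to 8.31 for *Dll4*. The causes were not tested.

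With the replicate block within each time point 5 members and 13 pathway genes were called at Day 3, where 23.2% of all genes were called. It also called 1 difference of effect from Day 3 to Day 7, against 0.845% of all genes, and the *Rbpj* difference from Day 7 to 4 weeks was 0.0083. In the edgeR fits this block changed no call of a member or named gene beyond those given with the results. Applying it to differences of effect was chosen after seeing the data. With 1 block over all libraries 2, 6 and 7 members and 3 differences of effect from Day 3 to 4 weeks were called, and the *Rbpj* difference was 0.0041. Of all genes that fit called 14.6%, 19.6% and 24.6% by treatment and 4.00% for the difference of effect. With the numbers crossed at 4 weeks, added after seeing the data, 3, 6 and 7 members were called, where 19.9%, 23.0% and 27.5% of all genes were. The ratio of summed *Dll1* counts at Day 3 was 0.229 with a counting interval from 0.0244 to 1.07, which includes no difference and covers counting error only.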

Other observations

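Some of the other cell type markers read beside the members moved with the groups. The summed level of 6 mesothelial and epicardial markers was 279 to 721 CPM in control and 131 to 212 CPM in *Sox17*-*Erg* libraries at Day 3, 510 to 982 and 223 to 318 CPM at Day 7, and 876 to 1380 and 161 to 251 CPM at 4 weeks, when all 6 were called lower by edgeR, against 11.0% of all genes. Cardiomyocyte markers summed to 892 to 1532 CPM in control and 334 to 411 CPM in *Sox17*-*Erg* libraries at Day 3, and 5 of 8 were lower at 4 weeks, against 11.0% of all genes. Fibroblast markers summed to 29769 and 35777 CPM in control and 25129 and 39098 CPM in *Sox17*-*Erg* libraries (Day 3), to 19679 and 24273 against 29669 and 30783 CPM (Day 7), where the *Sox17*-*Erg* libraries were the higher ones, and to 12479 to 14012 CPM in control and 10090 to 10974 CPM in *Sox17*-*Erg* libraries at 4 weeks. Of 8 such markers 1 was lower (Day 3), 1 higher and 3 lower (Day 7), and 1 higher and 4 lower (4 weeks). Of all genes, 5.13%, 7.93% and 11.0% were called lower, and 9.48% and 11.9% higher at Day 7 and 4 weeks. Macrophage markers summed to 381 and 263 CPM in control and 249 and 288 CPM in *Sox17*-*Erg* libraries (Day 3), to 771 and 1190 against 233 and 405 CPM (Day 7), where both *Sox17*-*Erg* libraries were the lower ones, and to 47.7 and 376 against 59.0 and 283 CPM (4 weeks), but edgeR called 0 of 8 at any time point, with 0, 1 and 0 at an unadjusted p under 0.05 and 0 by DESeq2. Schwann cell markers stayed under 4 CPM in every library.

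By rank correlation over the 12 libraries *Dll4* was closest to *Bcl6b* and *Slc22a21* (each rho = 0.98), and *Nrarp* had *Jag1* as its second nearest gene (rho = 0.97). *Bcl6b*, a transcriptional repressor, was also among the nearest genes of *Notch3* by Pearson correlation. These ranks were read without a test.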
